A study of Mus musculus with 96 samples.

Results

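Primary liver tumours of 2 mouse models, which the labels call PPTR and PNR, were compared in 20 of the 96 RNA-seq libraries of a study of organoids (3-dimensional cultures grown from normal or tumour liver cells), primary tumours and metastases. The 11 PPTR libraries and the 9 PNR libraries were taken by their sample description, as dissected primary tumours, and each library was a replicate. The labels give both groups as untreated mouse tissue with the condition primary tumour, from which total RNA was extracted. They name the PNR source as liver and the PPTR source only as tissue. They state no genotype, strain, age, sex or animal for either model, so no allele can be given, several libraries may share an animal or tumour, and p-values measure only the spread between these libraries. Normal liver (6 libraries) was used as an orientation for levels and entered no test.

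The liver lobule is zoned. Hepatocytes around the portal vein make urea and glucose, whereas those around the central vein, which receive Wnt ligands from the neighbouring endothelium, express glutamine synthetase and a set of cytochrome P450 enzymes. Wnt signals stabilise beta-catenin, which acts through TCF/LEF factors and also induces its own inhibitors. Notch receptors release an intracellular domain that binds RBPJ and induces Hes and Hey repressors, a pathway known for specifying bile duct cells in liver. Hepatocytes also turn excess carbohydrate into fat (de novo lipogenesis), which is stored in lipid droplets or exported in lipoproteins.

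Both models expressed hepatocyte genes. The 5 hepatocyte markers (Alb, Ttr, Apoa1, Serpina1a, Trf) summed to 28703, 72327 and 103530.0 CPM in PPTR, against 8086, 19144 and 22831 CPM in PNR (lowest, median and highest library, an order used throughout), given as CPM, read counts normalised to library size with factors from the 20 tumour libraries. Markers of pancreas, lung, skeletal muscle and adipocytes summed to no more than 0.970 CPM in any tumour library. Total counts per library were 16312964 to 57595988 in PPTR and 15167022 to 48496656 in PNR. Transcripts encoded by mitochondrial DNA took 3.22 ± 1.68% of counts in PPTR and 8.04 ± 2.26% in PNR (SD, n = 11 and 9; exact two-sided permutation p = 0.000131, and 0.000917 adjusted over 7 library measures). PNR libraries 2 and 3, PNR 4 to 6, and PNR 7 and 9 resembled each other closely, with log2 ratios over 11555 genes that had an SD of 0.195 to 0.299, against 0.535 to 1.22 between PPTR libraries; PNR 1 was next closest to PNR 2 and 3, at 0.447 to 0.558. Results were therefore also computed with each of these sets summed into 1 library, but the permutation test above counted every library. The libraries differed by model in a feature of the reference used for counting: the pseudogene Rpl34-ps1 took 81.3 to 86.6% of the reads of Rpl34 and its copy in PPTR and 5.08 to 8.48% in PNR. No block of library identifiers held both models, so handling and model cannot be told apart. Of the 6 normal livers, 5 had a Rpl34-ps1 share of 75.7 to 80.3%, like PPTR, and 1 had 7.80%, like PNR, so the nearness of a normal liver level to either model shares this limit. Xist marked 8 PPTR and 5 PNR libraries without Ddx3y, Ddx3y marked 2 PPTR and 4 PNR libraries without Xist, and 1 PPTR library had both. PNR 4 to 6, which are left out of some fits below, were among those with Ddx3y. They had 28259 to 29869 genes detected, against 18916 to 25175 in the other PNR libraries.

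The models differed in a large share of their genes: of 15645 tested, 7935 (50.7%) were called, 3793 (24.2%) higher and 4142 (26.5%) lower in PPTR (edgeR quasi-likelihood test, Benjamini-Hochberg adjusted p under 0.05). The median log2 fold change over all genes tested was -0.03, and all log2 fold changes are PPTR over PNR with their standard error. A change of more than 2-fold was supported for 1456 genes (9.31%), 795 (5.08%) higher and 661 (4.22%) lower (edgeR glmTreat). The ranges of the models did not overlap for 1324 genes (8.46%): for 570 (3.64%) every PPTR library lay above every PNR library, and for 754 (4.82%) every PPTR library lay below. Gene lists were read against these shares, since a list with similar shares differs little from the background. The plot of called members by list shows lists far from it on both sides, among them pericentral enzymes and Wnt feedback genes on the lower side and lipid, macrophage and interferon genes on the higher side. With only the 3 PPTR libraries of the smaller identifier block (044) the calls fell to 1603 higher and 1559 lower. Summing the close PNR libraries gave 2946 higher and 3695 lower, and 6338 of the 7935 main calls were kept in the same direction. Because the libraries are from bulk tissue, fewer cells of a type and less RNA per cell cannot be told apart in any result.

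**Figure D1:**
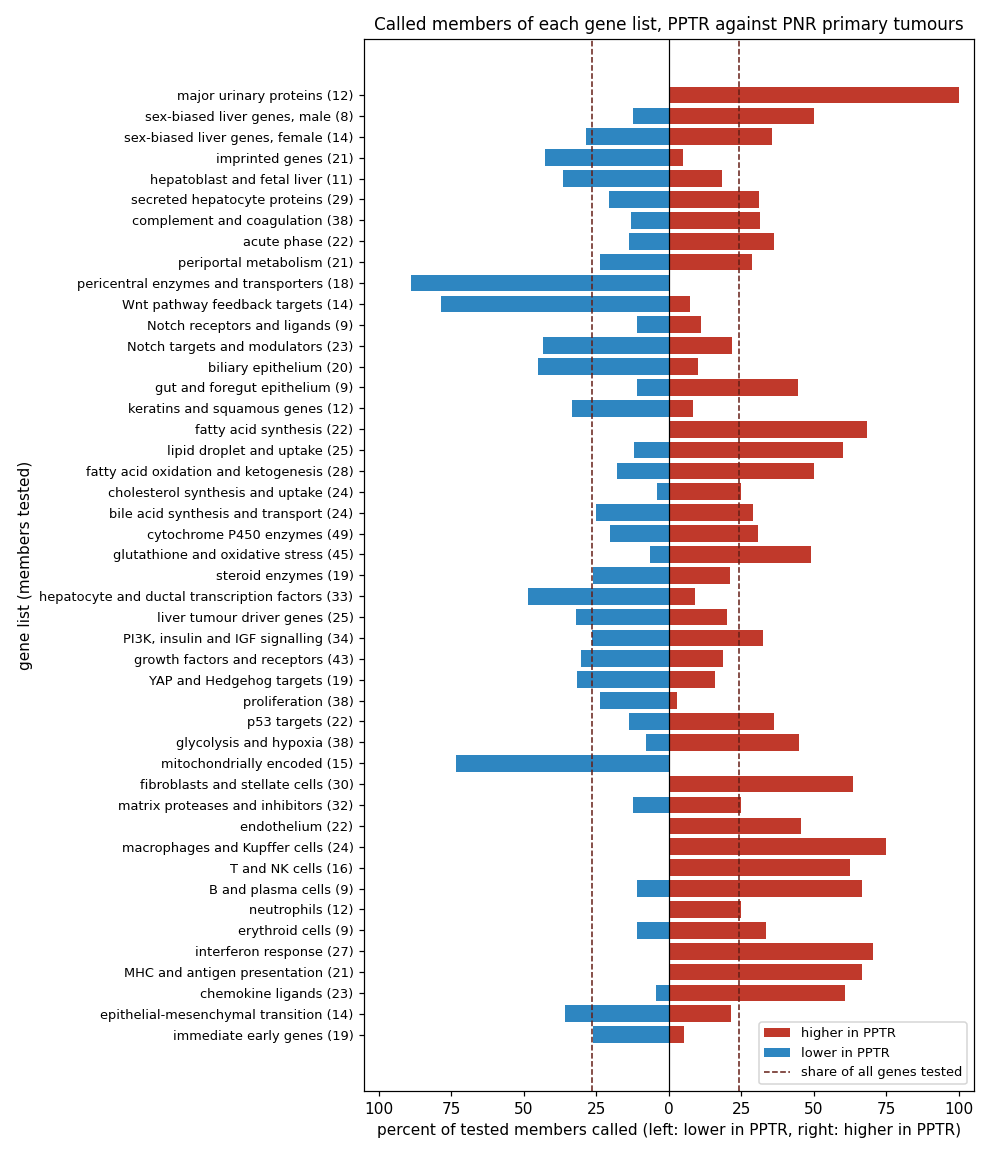
Share of the tested members of each gene list with at least 8 of them that were called, in percent, to the right for members higher in PPTR and to the left for members lower in PPTR, with the number of members tested in parentheses and dashed lines at the shares over all genes tested (24.2% higher, 26.5% lower). Pericentral genes reached 88.9% lower and none higher, and the macrophage list 75% higher and none lower.

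Genes induced by Wnt signalling were lower in PPTR than in PNR, by large factors. Of 21 feedback targets listed, 14 were tested, of which 11 were lower (all genes, 26.5%) and 1, the secreted Wnt antagonist Dkk2, was higher, with a median log2 fold change of -2.89. Axin2, the scaffold of the complex that destroys beta-catenin, had 0.557, 1.65 and 8.43 CPM in PPTR, against 3.69, 76.4 and 90.0 CPM in PNR (log2 fold change -4.65 ± 0.60, edgeR adjusted p = 4.12e-06). Lgr5, an R-spondin receptor that marks Wnt-responsive cells, had 0, 0.574 and 2.81 CPM in PPTR, against 1.53, 104.8 and 147 CPM in PNR (-6.64 ± 0.83, edgeR adjusted p = 2.63e-06). Sp5, a transcription factor induced by Wnt, had 0, 0.106 and 0.703 CPM in PPTR, against 0.0565, 15.6 and 46.2 CPM in PNR (-6.59 ± 0.97, edgeR adjusted p = 1.65e-05). The groups overlapped for each of the 3 through a pair of libraries, PNR 7 and 9, while the other 7 PNR libraries lay above every PPTR library: Axin2 was 73.4 to 90.0 CPM in those 7, against 4.69 and 3.69 CPM in PNR 7 and 9. Rnf43 and Znrf3, ubiquitin ligases that remove Wnt receptors from the membrane, did not overlap between the models. Rnf43 had 5.43, 7.50 and 18.2 CPM in PPTR, against 21.3, 69.1 and 139.9 CPM in PNR (-3.05 ± 0.34, edgeR adjusted p = 7.89e-07). Znrf3 had 4.98, 8.43 and 15.04 CPM in PPTR, against 23.2, 52.4 and 96.3 CPM in PNR (-2.70 ± 0.26, edgeR adjusted p = 1.35e-07). Dkk3, a divergent Dickkopf family member, also had every PPTR library below every PNR library (log2 fold change -3.29 ± 0.38). Nkd1, an intracellular inhibitor, and Tcf7, a TCF factor, were lower at -3.79 ± 0.65 and -3.01 ± 0.52. Beta-catenin itself, Ctnnb1, was not called, at 317, 453 and 551 CPM in PPTR, against 383, 475 and 667 CPM in PNR (-0.18 ± 0.13, edgeR adjusted p = 0.277). Apc, which serves in the same complex as Axin2, was lower in PPTR at -0.75.

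Pericentral genes followed the same division. Of 18 tested, 16 were lower in PPTR and none was higher, with a median log2 fold change of -3.25; Axin2 and Lgr5 are in both lists. Glul, glutamine synthetase, had 116, 387 and 2186 CPM in PPTR, against 87.8, 5868 and 13541 CPM in PNR (-3.69 ± 0.75, edgeR adjusted p = 4.36e-04). Slc1a2, a glutamate transporter of the innermost pericentral hepatocytes, had 0.174, 5.26 and 45.03 CPM in PPTR, against 0.169, 1178 and 3136 CPM in PNR (-7.12 ± 1.24, edgeR adjusted p = 1.02e-04). Oat, ornithine aminotransferase, had 11.2, 57.0 and 316 CPM in PPTR, against 633, 2428 and 5484 CPM in PNR (-4.88 ± 0.60, edgeR adjusted p = 2.14e-06). For Oat no library of one model reached the range of the other, whereas for Glul and Slc1a2 PNR 7 and 9 again lay at PPTR levels, at 87.8 and 95.4 CPM of Glul and 0.169 and 1.86 CPM of Slc1a2. Cyp2e1, an ethanol-oxidising P450, had 3.50, 113 and 1297 CPM in PPTR, against 323, 3649 and 4902 CPM in PNR (-3.41 ± 0.85, edgeR adjusted p = 0.00251). Cyp1a2, which metabolises caffeine, was lower at -3.60 ± 0.96, with the same pair of PNR libraries low, and missed the threshold in limma-voom (adjusted p = 0.290). Rhbg (an ammonium transporter), Gulo (the last step of vitamin C synthesis) and Tbx3 (a repressor induced by beta-catenin in liver) were lower at -3.34, -2.69 and -2.95. The median normal liver had 1159.8 CPM of Glul and 5.20 of Axin2, between the medians of the 2 models, and 3895 of Cyp2e1. The plot of Wnt and pericentral genes shows the division by library.

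**Figure D2:**
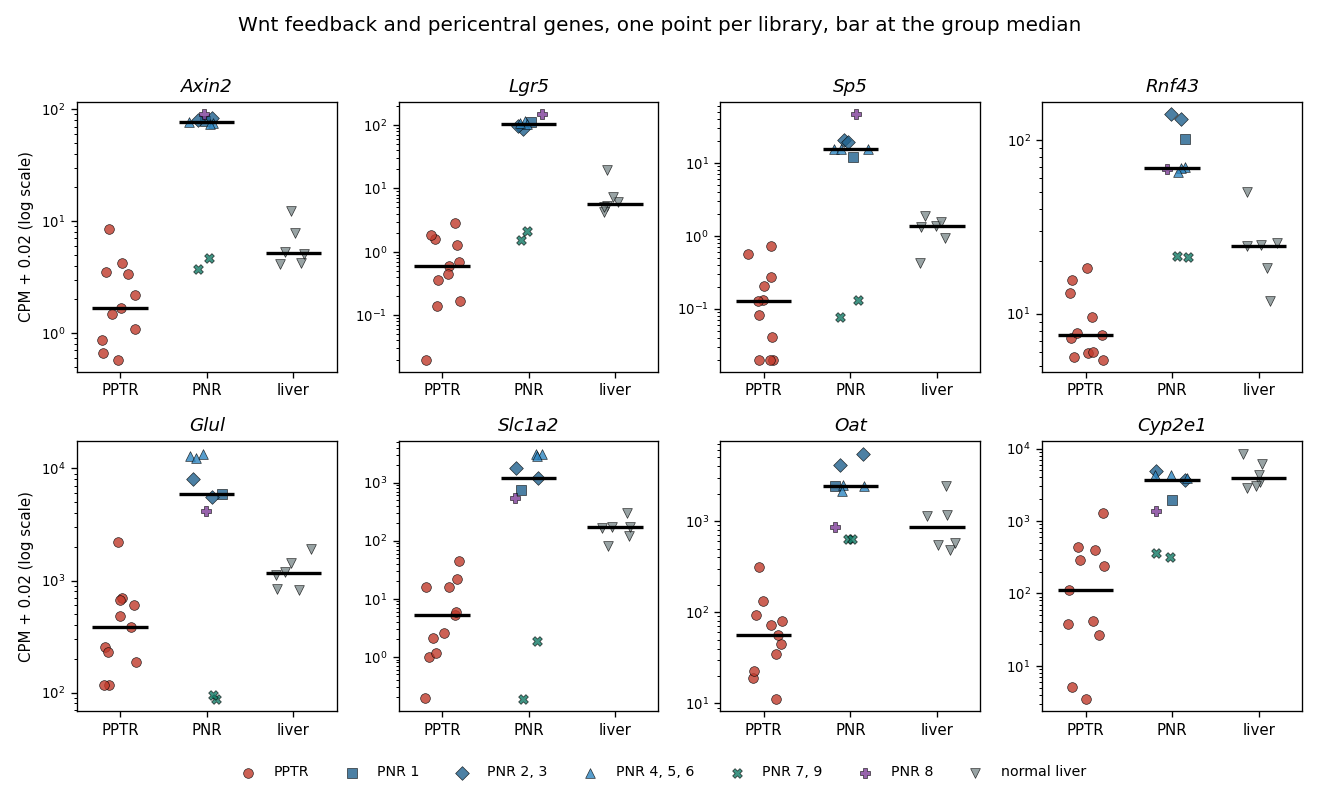
CPM plus 0.02 on a log axis for 4 Wnt feedback genes and 4 pericentral genes in 11 PPTR, 9 PNR and 6 normal liver libraries, 1 point per library with a bar at the group median and a marker shape for each set of PNR libraries. PNR 7 and 9 sit near the PPTR libraries for Axin2, Lgr5, Sp5, Glul and Slc1a2, while for Rnf43, Oat and Cyp2e1 most or all PNR libraries sit above PPTR.

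Promoter windows of Sp5, Slc1a2 and Axin2 are shown because these genes carried the Wnt difference and allow its best-known DNA element to be looked for. The sequences are the 250 bases before the RefSeq start of each gene on the gene's strand (GRCm38.p6), at chr2:70474673-70474922 on the plus strand for Sp5, chr2:102706188-102706437 on the plus strand for Slc1a2 and chr11:108920099-108920348 on the plus strand for Axin2. Capitals mark the TCF/LEF core CTTTGAT on either strand.
Sp5: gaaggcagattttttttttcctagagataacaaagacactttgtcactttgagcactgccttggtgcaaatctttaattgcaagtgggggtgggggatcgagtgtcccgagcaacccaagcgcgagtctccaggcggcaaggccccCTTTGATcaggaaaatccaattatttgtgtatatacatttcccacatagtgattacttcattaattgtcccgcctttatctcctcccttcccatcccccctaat
Slc1a2: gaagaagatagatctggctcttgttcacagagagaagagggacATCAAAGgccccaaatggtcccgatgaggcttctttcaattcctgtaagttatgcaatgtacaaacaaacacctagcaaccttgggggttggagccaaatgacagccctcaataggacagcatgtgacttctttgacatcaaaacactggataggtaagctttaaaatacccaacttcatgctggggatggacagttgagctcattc
Axin2: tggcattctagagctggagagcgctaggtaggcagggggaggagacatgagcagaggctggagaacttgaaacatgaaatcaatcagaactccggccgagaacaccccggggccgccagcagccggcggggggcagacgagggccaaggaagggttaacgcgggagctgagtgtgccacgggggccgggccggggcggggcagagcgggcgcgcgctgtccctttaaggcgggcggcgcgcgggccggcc
The match begins 104 bases before the start of Sp5 and, on the opposite strand as ATCAAAG, 207 bases before that of Slc1a2. The Axin2 window has none, which says nothing of elements elsewhere. Of genes lower in PPTR with a promoter in the table, 2 of 6 Wnt feedback genes (Sp5, Tnfrsf19) and 2 of 12 pericentral genes (Lect2, Slc1a2) held the motif, against 1053 of all 32851 promoters (3.21%). A match is a description of the letters and was not tied to binding in these data.

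Hes1, Heyl and Hey2, repressors that Notch induces, were lower in PPTR, though few receptors and ligands moved. Of 23 targets and modulators tested, 10 were lower and 5 higher (all genes, 26.5% and 24.2%), so the list was mixed (median -0.32), and without PNR 4 to 6 the count of higher members was 8. Hes1, the main Notch-induced repressor, had 15.1, 20.4 and 41.1 CPM in PPTR, against 43.0, 74.8 and 118 CPM in PNR (-1.66 ± 0.19, edgeR adjusted p = 1.25e-06). Heyl, a related repressor, had 0.696, 1.43 and 2.34 CPM in PPTR, against 7.35, 20.0 and 47.5 CPM in PNR (-4.01 ± 0.32, edgeR adjusted p = 1.26e-08). Nrarp, a feedback inhibitor of the Notch complex, had 3.00, 3.95 and 9.58 CPM in PPTR, against 13.02, 26.8 and 91.7 CPM in PNR (-3.36 ± 0.35, edgeR adjusted p = 3.45e-07). In each of the 3 every PPTR library lay below every PNR library, PNR 7 and 9 included. Hey2 was lower at -2.95 ± 0.47. Hes6, which counteracts Hes1, was higher without overlap, at 28.1, 53.1 and 104 CPM in PPTR, against 8.61, 13.8 and 15.8 CPM in PNR (2.06 ± 0.22, edgeR adjusted p = 4.54e-07). Lfng, a glycosyltransferase that modifies Notch receptors, and Psen2, a subunit of gamma-secretase, were higher at 1.55 and 1.65. Among the 9 receptors and ligands tested, Notch1 was the member lower in PPTR, at 26.6, 50.9 and 97.4 CPM in PPTR, against 81.5, 117.4 and 169 CPM in PNR (-1.17 ± 0.20, edgeR adjusted p = 7.08e-05), with ranges that overlapped; with the 8 PPTR libraries of the larger identifier block 3 members were lower. Notch3 was the member higher, at 1.01 ± 0.37 (edgeR adjusted p = 0.0269), and missed the threshold without PNR 2 (p = 0.0518) or PPTR 6 (p = 0.0583). The window before Hey2 (GRCm38.p6, chr10:30842784-30843033, minus strand) is printed 5′ to 3′ because it was the one window of 5 lower genes with a promoter in the table that held the RBPJ core TGGGAA, in capitals as its reverse complement TTCCCA.
Hey2: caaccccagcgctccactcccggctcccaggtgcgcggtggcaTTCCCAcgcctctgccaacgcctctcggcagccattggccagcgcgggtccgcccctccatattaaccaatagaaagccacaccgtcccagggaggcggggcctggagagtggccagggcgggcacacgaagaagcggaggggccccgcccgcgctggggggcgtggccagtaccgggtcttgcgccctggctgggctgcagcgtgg
The match begins 207 bases before the start, and 7094 of all 32851 promoters (21.6%) held this core on either strand.

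RNAs of the imprinted Dlk1-Dio3 cluster were far lower in PPTR. Of 21 imprinted genes tested, 9 were lower and 1, Plagl1, was higher in PPTR (median -0.65). These were 42.9% and 4.76%, against 26.5% and 24.2% of all genes. Meg3, a noncoding RNA of the Dlk1-Dio3 cluster, had 0.0413, 0.301 and 2.81 CPM in PPTR, against 115, 307 and 471 CPM in PNR (-8.86 ± 0.69, edgeR adjusted p = 1.06e-08). Rian, a noncoding RNA of the same cluster, had 0.156, 0.592 and 13.9 CPM in PPTR, against 245, 441 and 664 CPM in PNR (-7.62 ± 0.89, edgeR adjusted p = 1.27e-06). Mirg, the host of its microRNAs, had 0, 0.106 and 0.603 CPM in PPTR, against 15.4, 40.2 and 63.0 CPM in PNR (-8.07 ± 0.59, edgeR adjusted p = 5.01e-09). No PPTR library reached any PNR library for these RNAs. The median normal liver, at 3.32, 5.85 and 0.621 CPM, was below every PNR library but above the PPTR medians. For Meg3 and Mirg it also lay above the highest PPTR library. Rtl1, a retrotransposon-derived gene of the cluster, had no read in the 11 PPTR libraries and 1.27, 3.78 and 63.2 CPM in PNR, at least 1669.7-fold lower in PPTR when 3 counts are taken as the limit over the group. At the Igf2-H19 cluster the models were divided with 1 exception. Igf2, a fetal growth factor, had 0.0612, 0.279 and 1527 CPM in PPTR, against 638, 2255 and 3179 CPM in PNR. All PPTR libraries but PPTR 3 (1527 CPM) were at or below 3.43 CPM, and the difference missed the threshold (-3.81 ± 1.60, edgeR adjusted p = 0.0522) and passed it without PPTR 3 (-11.19, adjusted p = 1.22e-08). H19, the noncoding RNA beside it, had 0.676, 31.3 and 3731 CPM in PPTR, against 1171, 3082 and 4302 CPM in PNR (-3.00 ± 1.19, edgeR adjusted p = 0.0401) and PPTR 3 was again the high library at 3731 CPM. PPTR 3 had a ribosomal repeat share of 15.3% and 29.7% of reads not aligned, against PPTR medians of 0.397% and 8.63%. PPTR 8, with 18.4% and 28.3%, had 1.26 CPM of Igf2 and 229 CPM of H19. The H19 call was lost when any 1 of PNR 1, 2, 3, 4 or 6 or PPTR 4, 5, 6, 8, 10 or 11 was left out, with adjusted p of 0.0508 to 0.0601, and with the close PNR libraries summed (p = 0.118). Grb10, an adaptor that restrains insulin receptor signals, was lower at -2.08 ± 0.57, and the amino acid transporter Slc38a4 at -1.14 ± 0.31. Plagl1, a zinc finger factor, was higher at 1.37 ± 0.40, but not with the close PNR libraries summed (adjusted p = 0.0522) or without PNR 4 to 6 (p = 0.0562). The plot of Notch and imprinted genes gives both groups by library.

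**Figure D3:**
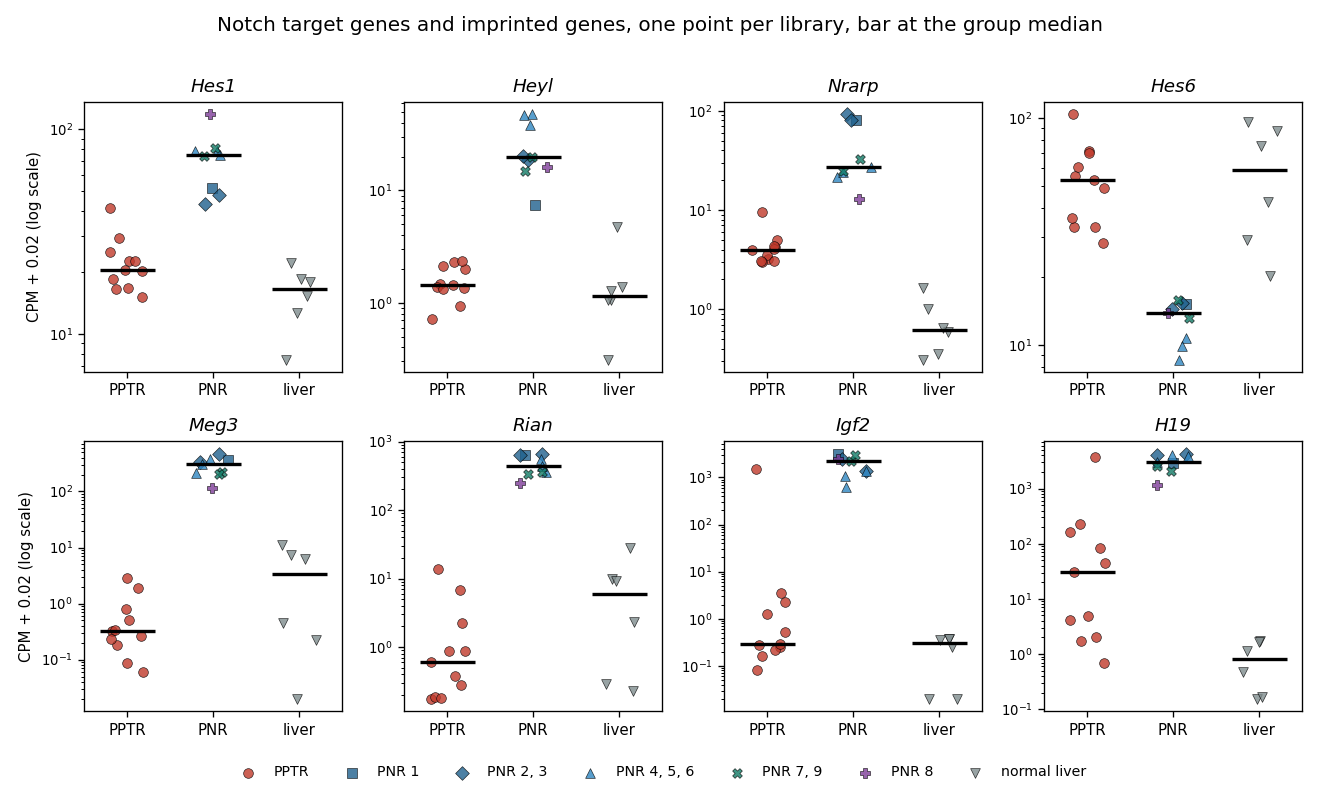
CPM plus 0.02 on a log axis for Notch target genes (upper row) and imprinted genes (lower row) in 11 PPTR, 9 PNR and 6 normal liver libraries, 1 point per library with a bar at the group median. Hes1, Heyl and Nrarp, Meg3 and Rian separate the models without overlap with PPTR below, Hes6 with PPTR above, and a single PPTR library reaches PNR levels of Igf2 and H19.

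Of 11 fetal liver genes tested, 2 were higher and 4 lower (18.2% and 36.4%, against 24.2% and 26.5% of all genes). With so few genes these counts differ little from the background. Afp, the fetal counterpart of albumin, had 0.534, 3.77 and 32.5 CPM in PPTR, against 0.923, 2.16 and 643 CPM in PNR (-3.70 ± 1.21, edgeR adjusted p = 0.0149). Its high values were those of PNR 7 and 9, at 325 and 643 CPM, and without PNR 9 it missed the threshold (p = 0.0801), as it did in limma-voom and with sex in the model, and in DESeq2 with replaced outliers its sign turned (1.04). Mycn, a MYC family factor, was lower at -2.70 ± 0.41, whereas the RNA-binding protein gene Igf2bp2 and the surface glycoprotein gene Cd24a were higher at 3.16 ± 0.63 and 2.60 ± 0.64.

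Among the 15 largest differences on the lower side were the Dlk1-Dio3 RNAs, Slc1a2 and Lgr5 described above. Upk3a, a uroplakin of bladder epithelium, was among the others and had 3 reads over all 11 PPTR libraries and 0.734, 365 and 1041 CPM in PNR, a ratio of PNR to PPTR of 53462 (95% interval 18294 to 259246, counting error only). Pnliprp1, a pancreatic lipase-related gene, had 0, 0.0287 and 0.101 CPM in PPTR, against 0.508, 4.09 and 209 CPM in PNR (-10.98 ± 1.33, edgeR adjusted p = 1.79e-06), with the high values in PNR 1 to 3 (161 to 209 CPM) and pancreas markers near 0. Trim9, a ubiquitin ligase of neurons, had 0, 0.0574 and 0.168 CPM in PPTR, against 1.96, 3.71 and 123 CPM in PNR (-8.49 ± 1.05, edgeR adjusted p = 2.35e-06). Pax8, a factor of thyroid and kidney development, was lower at -7.91 ± 1.15, and Cdh19, a cadherin, Sema5a, an axon guidance protein, and Greb1, a gene known for its induction by oestrogen, at -7.43, -6.88 and -6.62. On the higher side the list was led by the major urinary proteins described below and by Dntt, the polymerase that adds bases to antigen receptor genes in lymphocytes (1.21, 16.02 and 30.9 CPM in PPTR, against 0, 0.0565 and 0.118 CPM in PNR, 8.25 ± 0.66, edgeR adjusted p = 1.26e-08), Serpina12, a serpin known as vaspin (8.17 ± 0.57), and Cidea.

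Bile duct genes were lower in PPTR in part. Of 20 tested, 9 were lower and 2 higher (45% and 10%, against 26.5% and 24.2% of all genes, median -0.96). The 5 fixed biliary markers (Krt7, Krt19, Sox9, Epcam, Spp1) summed to 389, 1806 and 9059 CPM in PPTR, against 606, 911 and 13760.4 CPM in PNR. Of these markers 1 was called lower and none higher, and Sox9 and Krt19 were a small part of the PPTR sums. Sox9, a factor of duct cells that also appears in the Wnt list, had 1.97, 4.53 and 28.6 CPM in PPTR, against 18.9, 52.99 and 103 CPM in PNR (-2.78 ± 0.49, edgeR adjusted p = 1.13e-04). The structural marker Krt19 had 0, 0.790 and 5.96 CPM in PPTR, against 0.137, 4.56 and 14.2 CPM in PNR and was not called (edgeR adjusted p = 0.0509), though it was with the close PNR libraries summed (p = 0.0449). Cftr, the chloride channel of ducts, was lower at -3.95 ± 1.31, with its highest values, 232 and 254 CPM, in PNR 7 and 9, and missed the threshold in limma-voom (p = 0.570) and with the larger PPTR identifier block alone (p = 0.0532). The keratins of hepatocytes, Krt8 and Krt18, were both lower, at -0.94 ± 0.32 and -1.13 ± 0.36. Among hepatocyte and duct transcription factors 16 of 33 tested were lower and 3 higher. Prox1, a factor of hepatoblast and endothelial identity, had 38.5, 66.1 and 115 CPM in PPTR, against 169, 187 and 281 CPM in PNR (-1.599 ± 0.18, edgeR adjusted p = 6.54e-07). Nr5a2, a receptor that regulates bile acid genes, had 41.2, 49.1 and 55.4 CPM in PPTR, against 87.2, 90.3 and 163 CPM in PNR (-1.08 ± 0.11, edgeR adjusted p = 3.62e-07). Ahr, the receptor for dioxin-like compounds, had 14.1, 25.4 and 64.7 CPM in PPTR, against 34.1, 160.3 and 330.5 CPM in PNR (-2.60 ± 0.39, edgeR adjusted p = 2.41e-05). The ranges for Prox1 and Nr5a2 did not overlap. Foxa1, Hhex and Zhx2, a repressor of Afp, were lower without overlap at -1.13, -1.24 and -1.59, while Cebpa and Creb3l3, factors of mature hepatocyte metabolism, were higher at 0.62 ± 0.21 and 1.17 ± 0.22. Hnf4a, the central hepatocyte factor, was not called (0.11 ± 0.14, edgeR adjusted p = 0.511). Ehf, an epithelial ETS factor, was lower at -4.05 ± 0.79, with 185, 374 and 192 CPM in PNR 7, 8 and 9.

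Secreted hepatocyte proteins did not move in 1 direction: 9 of 29 were higher (all genes, 24.2%) and 6 lower in PPTR (median 0.35), and with the close PNR libraries summed 3 were lower. Alb, albumin, had 23166, 62506 and 90331 CPM in PPTR, against 3499, 8946 and 11750.5 CPM in PNR (2.69 ± 0.33, edgeR adjusted p = 1.84e-06), so that the median PPTR tumour was near the median normal liver (50114 CPM) and every PNR library lay below every PPTR library. Apoa4, an apolipoprotein that rises with liver fat, had 2957, 13167 and 26266 CPM in PPTR, against 7.17, 237 and 702 CPM in PNR (5.25 ± 0.64, edgeR adjusted p = 2.14e-06). The median normal liver had 475 CPM, close to PNR. Trf (transferrin), Hpx (a haem carrier), Gc (a vitamin D carrier) and Apoc3 were higher at 1.15, 1.02, 0.76 and 2.07. Serpina6, the carrier of corticosteroids, was lower without overlap, at 1.11, 53.6 and 336 CPM in PPTR, against 626, 1706 and 3086 CPM in PNR (-4.27 ± 0.74, edgeR adjusted p = 9.37e-05). Itih2, which links hyaluronan, and Fetub, a protease inhibitor, were also lower without overlap at -1.91 ± 0.23 and -1.78 ± 0.23. Apob, the protein of very low density lipoprotein, was not called (0.45 ± 0.25, edgeR adjusted p = 0.132). The summed hepatocyte markers given above were also higher in PPTR, but Alb is one of them and made up most of the PPTR sum (median 72327 CPM). Of the 5 markers, 2 were called higher and none lower. The part of hepatocyte content in the results on hepatocyte genes was not tested.

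Complement and coagulation genes were higher in 12 and lower in 5 of 38 tested (31.6% and 13.2%, against 24.2% and 26.5% of all genes). The terminal complement genes were on the higher side. C9 had 126, 623 and 1341 CPM in PPTR, against 11.7, 33.5 and 81.6 CPM in PNR (3.75 ± 0.46, edgeR adjusted p = 2.15e-06). C6 had 27.2, 92.5 and 364 CPM in PPTR, against 0.0565, 4.52 and 22.2 CPM in PNR (3.84 ± 0.77, edgeR adjusted p = 3.99e-04). Every PPTR library exceeded every PNR library for both, and C8b and C8g, which join the same membrane attack complex, were higher at 2.30 and 1.33. Coagulation factors F5 and F2 and plasminogen (Plg) were lower at -1.54, -0.63 and -0.84, and F9 was higher at 0.84. Among acute phase genes 8 were higher and 3 lower of 22 (36.4% and 13.6%, against 24.2% and 26.5% of all genes). Orm1, orosomucoid, had 399, 500.4 and 901 CPM in PPTR, against 0.458, 5.37 and 172 CPM in PNR (3.99 ± 0.88, edgeR adjusted p = 8.65e-04). Cp, the copper protein ceruloplasmin, had 3638, 5582 and 9472 CPM in PPTR, against 2114, 2524 and 3144 CPM in PNR (1.18 ± 0.19, edgeR adjusted p = 3.67e-05). Il1r1, the interleukin-1 receptor, was on the other side, at 9.47, 20.8 and 34.2 CPM in PPTR, against 183, 274 and 377 CPM in PNR (-3.68 ± 0.23, edgeR adjusted p = 4.85e-10). None of these 3 overlapped between the models. Il1rn, the antagonist of that receptor, was lower as well, at -1.75 ± 0.34.

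Periportal metabolism was split, with 6 of 21 higher and 5 lower in PPTR (28.6% and 23.8%, near the 24.2% and 26.5% of all genes). Enzymes of tyrosine breakdown were low. Tat, tyrosine aminotransferase, had 13.8, 60.3 and 259 CPM in PPTR, against 306, 751 and 902 CPM in PNR (-2.66 ± 0.46, edgeR adjusted p = 8.41e-05). Hpd, the next step of tyrosine breakdown, had 1.85, 20.1 and 385 CPM in PPTR, against 709, 1259.5 and 2359.7 CPM in PNR (-4.29 ± 0.80, edgeR adjusted p = 2.04e-04). Both were without overlap, and the median normal liver was above the PNR median for each, at 846 and 2704 CPM. The gluconeogenic phosphatase G6pc was lower at -2.04 ± 0.55. Cyp2f2, a periportal P450, was higher at 6.78 ± 0.86, as were Tdo2, which opens tryptophan, at 3.43 ± 0.67 and Hsd17b13, a lipid droplet enzyme, at 2.47 ± 0.29. The urea cycle genes Cps1 and Otc were not called (1.47 ± 0.63 and 0.76 ± 0.40).

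Major urinary proteins, pheromone carriers made in liver under growth hormone and androgen control, gave the largest differences on the higher side. Of 21 Mup symbols, 12 passed the filter on low counts and all 12 were higher in PPTR; the filter passed them through PPTR, and their near-identical sequences let reads be split between copies, so single members are uncertain. Mup3 had 8.99, 288 and 1396 CPM in PPTR, against 0, 0.0873 and 0.762 CPM in PNR (11.49 ± 1.29, edgeR adjusted p = 7.86e-07). Mup20, known as darcin, had 13.3, 277 and 882 CPM in PPTR, against 0, 0.368 and 0.772 CPM in PNR (9.78 ± 1.02, edgeR adjusted p = 3.37e-07). Mup1 had 0.303, 1.74 and 1622 CPM in PPTR, against 0, 0.0574 and 0.406 CPM in PNR (10.43 ± 2.03, edgeR adjusted p = 2.94e-04). For Mup3 and Mup20 every PPTR library lay above every PNR library, but Mup1 and the other central members were high mainly in PPTR 2 (1622 CPM) and PPTR 7 (224 CPM), with a PPTR median of 1.74 CPM against 619.7 CPM in the median normal liver. Lists of genes known to be biased by sex in mouse liver were small. Of 8 male-biased genes 4 were higher and 1 lower (50% and 12.5%). Of 14 female-biased genes 5 were higher and 4 lower (35.7% and 28.6%). The shares of all genes were 24.2% and 26.5%, so the female-biased list was near the background. Without PNR 4 to 6, 7 male-biased genes were higher and none lower (median 4.05). In the same fit 7 female-biased genes were higher and 4 lower.

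Cytochrome P450 genes moved in both directions, with 15 of 49 higher and 10 lower (30.6% and 20.4%, against 24.2% and 26.5% of all genes). Cyp3a11, the main drug-metabolising P450 of mouse liver, had 373, 2428 and 5802 CPM in PPTR, against 1.496, 8.70 and 88.7 CPM in PNR (7.17 ± 0.90, edgeR adjusted p = 2.64e-06). Cyp2a12, a steroid hydroxylase, had 190.5, 659.5 and 1053 CPM in PPTR, against 1.02, 10.1 and 28.6 CPM in PNR (5.70 ± 0.51, edgeR adjusted p = 4.36e-08). Cyp2a4, a female-biased steroid hydroxylase, had 27.2, 1504 and 4675 CPM in PPTR, against 0.0539, 4.80 and 49.5 CPM in PNR (6.86 ± 1.19, edgeR adjusted p = 9.31e-05). Cyp3a11 and Cyp2a12 did not overlap and Cyp2a4 overlapped at 1 end. Cyp2b9, a female-biased gene, was higher at 8.14 ± 1.10. The female-biased Cyp3a16, a close relative of Cyp3a11, was lower at 0.0207, 0.556 and 12.9 CPM in PPTR, against 2.78, 100.8 and 345 CPM in PNR (-5.87 ± 1.02, edgeR adjusted p = 1.02e-04), as were the female-biased sulfotransferases Sult2a1 and Sult2a2 at -4.99 ± 1.03 and -4.20 ± 0.89. Cyp7a1, which limits the rate at which bile acids are made, was lower at 0.727, 11.5 and 61.0 CPM in PPTR, against 0.155, 156 and 223 CPM in PNR (-2.75 ± 0.85, edgeR adjusted p = 0.0109), but missed the threshold in limma-voom (p = 0.291) and without PNR 4 to 6 (p = 0.0598), whereas Cyp8b1, which makes cholic acid, was higher at 6.61 ± 1.05. Bile acid genes as a list were 7 higher and 6 lower of 24, near the shares of all genes. Ostb, a subunit of the basolateral bile acid exporter, was higher without overlap at 4.38 ± 0.72. Steroid enzymes were 4 higher and 5 lower of 19 (3 lower with sex in the model), also near those shares. Among them Hsd11b1, which activates cortisone, was higher at 181, 346 and 752 CPM in PPTR, against 9.10, 42.2 and 145 CPM in PNR (2.81 ± 0.47, edgeR adjusted p = 6.35e-05) and Akr1c18, which inactivates progesterone, was lower at 0.182, 2.24 and 17.3 CPM in PPTR, against 121, 153 and 189 CPM in PNR (-5.34 ± 0.62, edgeR adjusted p = 1.27e-06), both without overlap. The plot of hepatocyte products shows 8 of these genes.

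**Figure D4:**
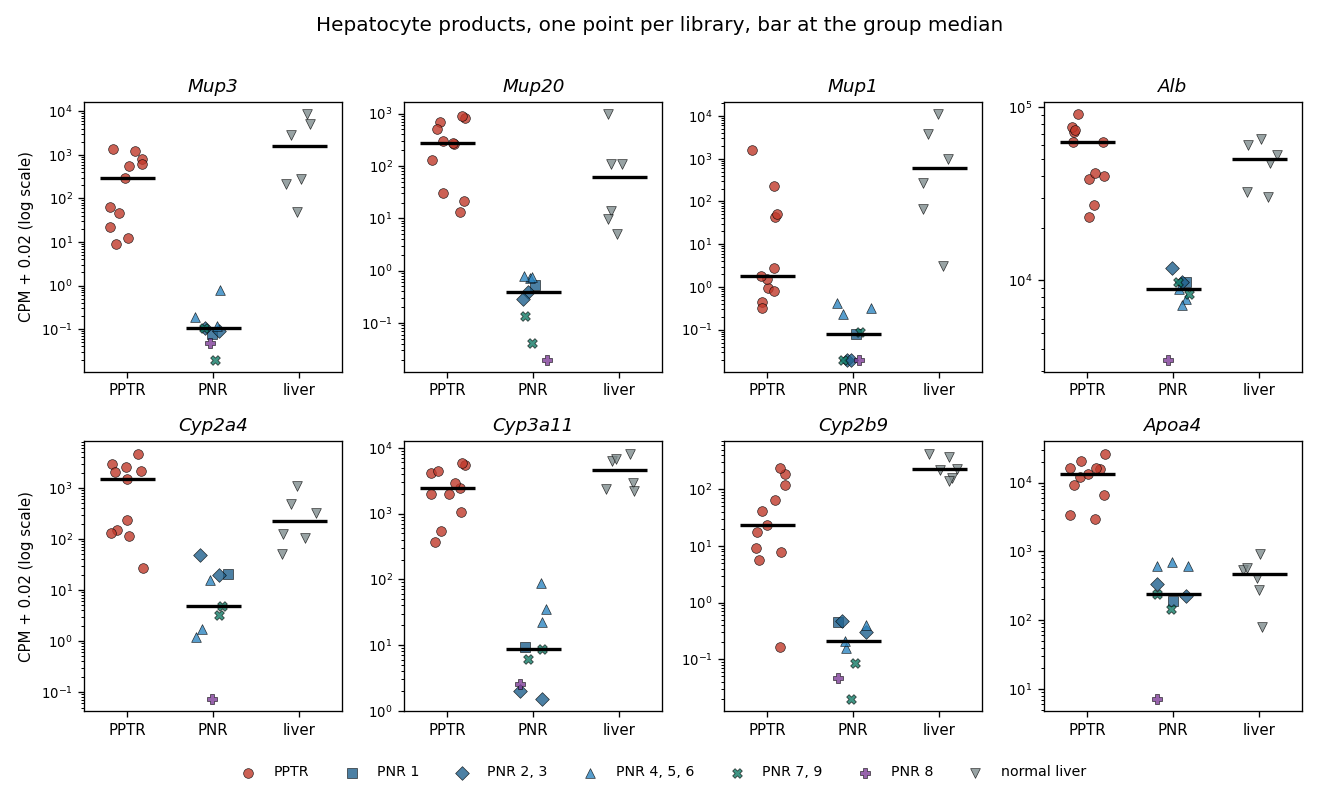
CPM plus 0.02 on a log axis for major urinary proteins, Alb, Apoa4 and 3 cytochrome P450 genes in 11 PPTR, 9 PNR and 6 normal liver libraries, 1 point per library with a bar at the group median. Mup3, Mup20, Alb, Cyp3a11 and Apoa4 lie higher in every PPTR library than in any PNR library, while the PPTR libraries spread widely for Mup1, around a median of 1.74 CPM and up to 1622 CPM.

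Fatty acid synthesis genes were higher in PPTR. Of 22 genes tested, 15 were higher and none was lower (all genes, 24.2% and 26.5%), with a median log2 fold change of 1.32. Acly, which makes cytosolic acetyl-CoA, had 179.7, 999 and 2444 CPM in PPTR, against 50.6, 103 and 167 CPM in PNR (3.32 ± 0.42, edgeR adjusted p = 3.30e-06). Fasn, fatty acid synthase, had 236, 2268 and 4023 CPM in PPTR, against 84.5, 310.0 and 488 CPM in PNR (2.78 ± 0.46, edgeR adjusted p = 6.14e-05). Me1, malic enzyme, which supplies NADPH, had 95.4, 333 and 687 CPM in PPTR, against 20.9, 40.0 and 58.2 CPM in PNR (3.05 ± 0.34, edgeR adjusted p = 8.51e-07). Acly and Me1 did not overlap, and Fasn overlapped because PPTR 9 and 11 were low, at 236 and 310.0 CPM. Thrsp, a lipogenic nuclear protein, Gpam, which starts triglyceride assembly, and Elovl6, an elongase, were higher at 5.05 ± 0.45, 2.05 ± 0.29 and 3.29 ± 0.67. Scd1, the desaturase that makes oleate, had 6239, 17274 and 37229 CPM in PPTR, against 1493, 6951 and 8320.5 CPM in PNR (1.85 ± 0.39, edgeR adjusted p = 6.74e-04). Srebf1, the lipogenic regulator, was not called (0.10 ± 0.24, edgeR adjusted p = 0.747). Pklr, a liver glycolytic enzyme induced with lipogenesis, was higher at 3.33 ± 0.39.

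Lipid droplet and uptake genes were higher in 15 and lower in 3 of 25 tested (median 1.505), and 1 was lower with the close PNR libraries summed. Cidec, a protein that enlarges droplets, had 15.3, 95.4 and 199 CPM in PPTR, against 0.320, 0.884 and 3.21 CPM in PNR (6.30 ± 0.59, edgeR adjusted p = 8.04e-08). Cidea, its relative in brown fat and fatty liver, had 2.60, 46.5 and 211 CPM in PPTR, against 0.0218, 0.132 and 1.08 CPM in PNR (8.05 ± 0.87, edgeR adjusted p = 5.44e-07). Mogat1, which makes diglyceride, had 5.96, 22.6 and 75.9 CPM in PPTR, against 0, 0.113 and 0.299 CPM in PNR (7.80 ± 0.63, edgeR adjusted p = 1.26e-08). These genes were at 0.635, 0.123 and 1.66 CPM in the median normal liver, and no PNR library reached a PPTR library. The fatty acid transporter Cd36 had 371, 611 and 771 CPM in PPTR, against 8.20, 43.97 and 266 CPM in PNR (2.74 ± 0.56, edgeR adjusted p = 4.78e-04), also without overlap. Plin2 and Plin5, which coat droplets, and Mttp, which loads lipoproteins, were higher without overlap at 1.61, 1.74 and 1.87. Lpl, lipoprotein lipase, was the exception among abundant members, at 60.8, 87.8 and 274 CPM in PPTR, against 408, 603 and 979 CPM in PNR (-2.65 ± 0.27, edgeR adjusted p = 2.51e-07). The adipocyte markers Adipoq and Plin1 summed to at most 0.333 CPM in any tumour library.

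Fatty acid oxidation genes were 14 higher and 5 lower of 28 tested (median 0.77). Hadhb, a subunit of the trifunctional protein, had 223, 299.8 and 406 CPM in PPTR, against 72.2, 94.4 and 128 CPM in PNR (1.62 ± 0.14, edgeR adjusted p = 3.57e-08). Hadha, its partner, and the hepatic hormone Fgf21 were higher at 1.03 and 1.45. Ppargc1a, a coactivator of mitochondrial genes, was lower without overlap at -1.76 ± 0.30, and Acot1, a target of PPAR-alpha, was lower at -2.88 ± 0.44. Cholesterol synthesis genes were 6 higher and 1 lower of 24, a higher share near that of all genes, with 1 higher when the close PNR libraries were summed and 3 without PNR 4 to 6. Srebf2, the regulator of the pathway, was lower without overlap at -1.35 ± 0.15.

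Glutathione and redox genes were among the lists with most members on the higher side, 22 of 45, with 3 lower (median 0.78); 6 were lower without PNR 4 to 6. The pentose phosphate enzyme Pgd had 64.5, 137 and 265 CPM in PPTR, against 16.2, 17.98 and 38.5 CPM in PNR (2.66 ± 0.31, edgeR adjusted p = 1.18e-06). Txnrd1, thioredoxin reductase, had 192, 217 and 561 CPM in PPTR, against 75.9, 97.1 and 163 CPM in PNR (1.27 ± 0.23, edgeR adjusted p = 1.20e-04). Cbr3, a carbonyl reductase, had 8.71, 44.3 and 184 CPM in PPTR, against 0.330, 1.24 and 6.05 CPM in PNR (4.90 ± 0.76, edgeR adjusted p = 3.16e-05). All 3 lacked overlap, and Gclm, a subunit of the enzyme that starts glutathione synthesis, was higher at 0.91 ± 0.21. Akr1b7, an aldose reductase, was lower without overlap at 0.0674, 1.64 and 7.68 CPM in PPTR, against 103, 159.8 and 194 CPM in PNR (-6.06 ± 0.66, edgeR adjusted p = 5.29e-07). Nqo1, a common NRF2 target, was not called (0.69 ± 0.67, edgeR adjusted p = 0.398). Glycolysis and hypoxia genes were 17 higher and 3 lower of 38, with 7 lower in the larger PPTR identifier block alone. Hk2, the hexokinase of tumours, had 14.7, 39.5 and 149 CPM in PPTR, against 1.03, 3.82 and 11.4 CPM in PNR (3.67 ± 0.53, edgeR adjusted p = 1.57e-05). Slc2a2, the glucose transporter of hepatocytes, had 279.6, 379 and 639 CPM in PPTR, against 4.02, 41.8 and 153 CPM in PNR (2.73 ± 0.54, edgeR adjusted p = 3.75e-04). Both were without overlap, and Vegfa, a hypoxia target, was not called (0.46 ± 0.45). Transcripts encoded by mitochondrial DNA were lower in 11 of 15 and higher in none (median -1.40). The complex III subunit mt-Cytb had 305, 399 and 890.3 CPM in PPTR, against 1152, 2393 and 3273 CPM in PNR (-2.35 ± 0.23, edgeR adjusted p = 1.51e-07).

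Genes mutated in liver tumours were examined because the labels name no allele. Trp53, which encodes p53, had 4.005, 6.65 and 11.7 CPM in PPTR, against 15.9, 23.6 and 28.0 CPM in PNR (-1.604 ± 0.18, edgeR adjusted p = 8.51e-07). Every PPTR library lay below every PNR library, and the median of normal liver, 5.40 CPM, was near PPTR. A gene-level count does not show whether an exon is deleted. Prom1, a surface marker of progenitor cells, had 0.219, 14 and 77.7 CPM in PPTR, against 0.294, 38.0 and 89.0 CPM in PNR (-1.01 ± 0.95, edgeR adjusted p = 0.389), with 0.294 to 0.406 CPM in PNR 4 to 6. Nras, a RAS gene, was higher without overlap at 0.79 ± 0.10. The list gave 5 higher and 8 lower of 25 (20% and 32%, near the 24.2% and 26.5% of all genes). With the close PNR libraries summed, 3 were higher.

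Genes of insulin and IGF signalling were 11 higher and 9 lower of 34, both near the shares of all genes. Irs2, the main insulin receptor substrate of liver, had 2.33, 5.41 and 17.1 CPM in PPTR, against 48.1, 64.4 and 107 CPM in PNR (-3.47 ± 0.34, edgeR adjusted p = 1.61e-07). Igfbp1, an IGF-binding protein repressed by insulin, had 6.77, 28.7 and 641 CPM in PPTR, against 405, 1135 and 2633 CPM in PNR (-3.73 ± 0.73, edgeR adjusted p = 3.23e-04). Igfbp2, a related carrier, had 0.496, 2.01 and 30.0 CPM in PPTR, against 28.6, 63.2 and 417 CPM in PNR (-4.76 ± 0.78, edgeR adjusted p = 5.35e-05). Irs2 did not overlap, and Foxo3, a factor that insulin excludes from the nucleus, was lower at -1.06 ± 0.20. Mtor and the regulatory subunit gene Pik3r3 were higher without overlap at 0.99 ± 0.14 and 1.58 ± 0.25. Growth factors and receptors were 8 higher and 13 lower of 43 (18.6% and 30.2%, against 24.2% and 26.5% of all genes). Fgfr1, a receptor for fibroblast growth factors, had 0.627, 2.29 and 24.5 CPM in PPTR, against 158, 189 and 217 CPM in PNR (-5.09 ± 0.59, edgeR adjusted p = 1.06e-06). Bmp7, a TGF-beta family ligand, had 0.0287, 0.207 and 3.09 CPM in PPTR, against 6.51, 12.9 and 41.8 CPM in PNR (-5.36 ± 0.67, edgeR adjusted p = 2.75e-06). Hgf, the ligand of Met made by stellate cells, had 5.13, 21.1 and 33.3 CPM in PPTR, against 1.99, 3.00 and 4.52 CPM in PNR (2.98 ± 0.27, edgeR adjusted p = 7.06e-08). Neither Fgfr1, Bmp7 nor Hgf overlapped between the models.

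Few cell cycle genes were higher, with 1 higher and 9 lower of 38 tested (all genes, 24.2% and 26.5%) and 15 lower without PNR 4 to 6. Mki67, a marker of cycling cells, had 4.96, 38.4 and 75.1 CPM in PPTR, against 4.84, 56.4 and 71.0 CPM in PNR and was not called (-0.16 ± 0.51, edgeR adjusted p = 0.811), and PNR 4 to 6 held its low PNR values (4.84 to 8.53 CPM). Ccnd1, cyclin D1, had 37.6, 119.9 and 262 CPM in PPTR, against 206, 327 and 548 CPM in PNR (-1.47 ± 0.31, edgeR adjusted p = 5.78e-04), and the helicase subunit Mcm6 was lower at -1.48 ± 0.44. Ccne1, cyclin E1, was the member higher, at 2.49 ± 0.56. Targets of p53 were 8 higher and 3 lower of 22 (36.4% and 13.6%, with the shares of all genes given above). The number higher was 3 with the close PNR libraries summed and 4 without PNR 4 to 6. Pmaip1 (NOXA), a cell death gene, was higher without overlap at 2.97 ± 0.48, while Cdkn1a (p21) was not called (-0.40 ± 0.45). YAP and Hedgehog genes were 3 higher and 6 lower of 19 (15.8% and 31.6%, against 24.2% and 26.5% of all genes). Without PNR 4 to 6 the number higher was 6. The Hedgehog receptor Ptch1 was lower without overlap at -1.08 ± 0.14. Immediate early genes were 1 higher and 5 lower of 19 (5.26% and 26.3%, against 24.2% and 26.5% of all genes). In the larger PPTR identifier block alone 11 were lower, and Egr1 had -2.57 ± 0.48 in all libraries. The median of that list was -0.34 and turned to 0.38 with block 044 alone.

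Most macrophage genes were higher in PPTR: 18 of 24 were higher and none was lower (all genes, 24.2% and 26.5%; median 1.76). Emr1, which encodes F4/80, had 11.5, 56.3 and 158 CPM in PPTR, against 5.23, 10.4 and 19.6 CPM in PNR (2.48 ± 0.40, edgeR adjusted p = 4.71e-05). Mpeg1, a pore-forming protein of macrophages, had 228, 344 and 545 CPM in PPTR, against 35.7, 123 and 208 CPM in PNR (1.49 ± 0.26, edgeR adjusted p = 1.05e-04). Ccr2, the chemokine receptor of monocytes, had 8.92, 17.8 and 97.9 CPM in PPTR, against 2.21, 3.70 and 5.85 CPM in PNR (3.23 ± 0.46, edgeR adjusted p = 1.12e-05). Mpeg1 and Ccr2 did not overlap. The Kupffer cell genes Clec4f and Vsig4 had 0.186, 70.3 and 283 CPM and 0.392, 18.6 and 137 CPM in PPTR, against 0.0565, 0.297 and 5.02 CPM and 0.133, 0.490 and 5.48 CPM in PNR (5.45 ± 1.09 and 4.57 ± 0.93), with medians of 388 and 113 CPM in normal liver. Gpnmb, a marker of lipid-associated macrophages, was not called (-1.51 ± 0.83, edgeR adjusted p = 0.135). With identifier block 044 alone 4 macrophage genes were higher and none lower (median 1.10). The 5 fixed macrophage markers summed to 221, 604 and 1076 CPM in PPTR, against 51.3, 184 and 362 CPM in PNR.

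Antigen presentation and interferon genes were higher as well. Of 21 genes of the MHC pathways 14 were higher and none lower (median 1.31). H2-K1, a class I heavy chain, had 859, 1098 and 2247 CPM in PPTR, against 225, 419 and 615 CPM in PNR (1.48 ± 0.20, edgeR adjusted p = 8.89e-06). Cd74, the class II invariant chain, had 145, 306 and 1074 CPM in PPTR, against 16.7, 58.0 and 202 CPM in PNR (1.99 ± 0.46, edgeR adjusted p = 0.00141). Psmb8, an immunoproteasome subunit, had 37.0, 109 and 176 CPM in PPTR, against 25.6, 29.1 and 53.3 CPM in PNR (1.57 ± 0.23, edgeR adjusted p = 2.00e-05). H2-K1 did not overlap and the other 2 did. Interferon response genes were higher in 19 of 27 and lower in none, but in 10 with the close PNR libraries summed. Iigp1, an interferon-induced GTPase, had 174, 444 and 891 CPM in PPTR, against 1.67, 114 and 189 CPM in PNR (2.53 ± 0.59, edgeR adjusted p = 0.00141), and Oasl1 and Ifit2, antiviral genes, were higher at 3.20 ± 0.66 and 2.21 ± 0.41. Chemokines were 14 higher and 1 lower of 23. Cxcl9, which attracts T cells, was higher at 2.99 ± 0.73, Ccl2, which attracts monocytes, at 1.91 ± 0.38 and Ccl24, an eosinophil chemokine, without overlap at 5.11 ± 0.71. The macrophage marker sum above and the lymphocyte sums below moved with these lists, and their part in these results was not tested.

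Lymphocyte genes had few reads in both models, and the 4 fixed T and NK cell markers summed to 1.33, 4.67 and 19.3 CPM in PPTR, against 0.764, 2.71 and 5.96 CPM in PNR. Of T and NK cell genes 10 of 16 were higher in PPTR, with Cd3g at 0.264, 1.64 and 9.11 CPM in PPTR, against 0.108, 0.282 and 0.659 CPM in PNR (2.72 ± 0.58, edgeR adjusted p = 6.89e-04) and Cd4, which marks helper T cells and is also made by macrophages, at 1.98 ± 0.58. With the 3 PPTR libraries of identifier block 044 alone none of the list was called and its median turned to -0.43, against 1.596 in all libraries, and Cd3g was -0.049. Of B cell genes 6 of 9 were higher, with Ms4a1 (CD20) at 0, 1.23 and 10.4 CPM in PPTR, against 0.0539, 0.294 and 0.574 CPM in PNR (2.99 ± 0.72, edgeR adjusted p = 0.00179), and Cr2, a complement receptor, was lower at -3.62 ± 0.72. The 3 fixed B cell markers summed to 0, 2.18 and 14.6 CPM in PPTR, against 0.0809, 0.751 and 1.28 CPM in PNR. Neutrophil genes were higher in 3 of 12 (25%, near the 24.2% of all genes), but in 9 without PNR 4 to 6. The markers S100a8 and S100a9 summed to 2.26, 20.2 and 198 CPM in PPTR, against 2.78, 11.1 and 44.6 CPM in PNR.

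Stromal genes were on the higher side. Fibroblast and stellate cell genes were higher in 19 of 30 and lower in none (median 1.37). Dcn, the proteoglycan decorin, had 19.7, 145 and 289.8 CPM in PPTR, against 6.13, 15.6 and 44.7 CPM in PNR (2.90 ± 0.42, edgeR adjusted p = 1.55e-05). Col3a1, a fibrillar collagen, had 89.8, 221 and 652 CPM in PPTR, against 14.5, 91.5 and 185 CPM in PNR (1.75 ± 0.52, edgeR adjusted p = 0.00878). Lrat, the retinol enzyme of quiescent stellate cells, had 4.43, 27.0 and 40.3 CPM in PPTR, against 0.508, 3.08 and 9.04 CPM in PNR (2.62 ± 0.46, edgeR adjusted p = 1.19e-04). Dcn and Lrat overlapped at the ends of the ranges. Col3a1 overlapped more widely, with 6 PPTR libraries above every PNR library. Col1a1, the main collagen of scar, was not called (0.49 ± 0.51), and the 4 fixed fibroblast markers summed to 109, 297 and 622 CPM in PPTR, against 20.9, 148 and 265 CPM in PNR. Endothelial genes were higher in 10 of 22 and lower in none (2 lower in the larger PPTR identifier block alone), among them Mrc1, a scavenger receptor of liver sinusoids, at 1.86 ± 0.36, and Flt4, the VEGFR3 gene, at 2.49 ± 0.45. The general endothelial marker Pecam1 was not called (0.24 ± 0.47). The 3 fixed endothelial markers, Pecam1 among them, summed to 135, 162 and 736 CPM in PPTR, against 46.8, 129 and 442 CPM in PNR. Only 1 of these 3 was called higher, and none lower. Matrix proteases and inhibitors were 8 higher and 4 lower of 32 (25% and 12.5%, against 24.2% and 26.5% of all genes). Without PNR 4 to 6, 15 were higher and 2 lower. Plat, tissue plasminogen activator, was lower at -2.45 ± 0.73. Genes of epithelial-mesenchymal transition were 3 higher and 5 lower of 14 (21.4% and 35.7%, against 24.2% and 26.5% of all genes). Without PNR 4 to 6 the number higher was 5. The cadherin Cdh2 was lower without overlap at -0.90 ± 0.10, and the repressor Snai2 was higher at 2.19 ± 0.47. The plot of lipid, immune and stromal genes shows one gene or more of each kind.

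**Figure D5:**
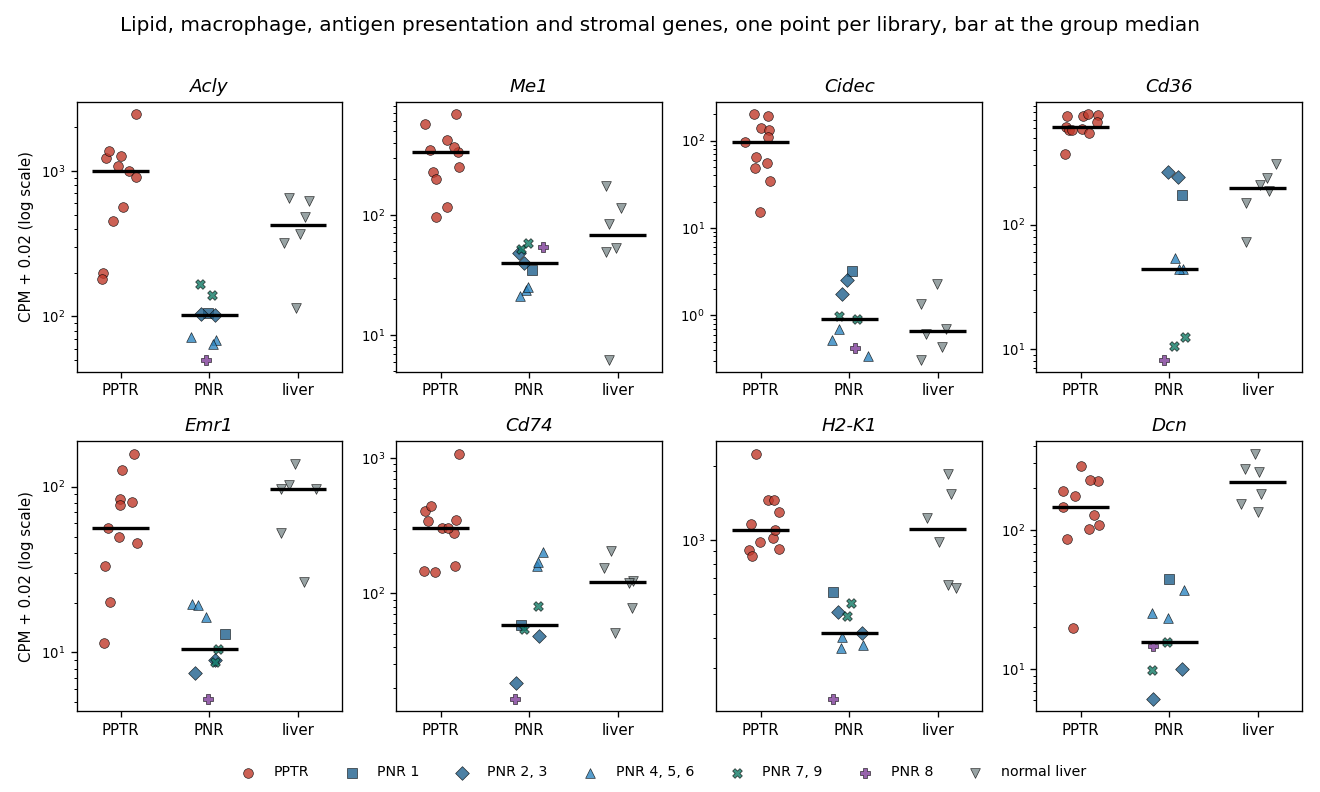
CPM plus 0.02 on a log axis for lipid genes (upper row) and for a macrophage gene, MHC class II and class I genes and a stromal gene (lower row) in 11 PPTR, 9 PNR and 6 normal liver libraries, 1 point per library with a bar at the group median. Acly, Me1, Cidec, Cd36 and H2-K1 separate the models without overlap, with PPTR above, while Emr1, Cd74 and Dcn overlap at the ends.

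Among gut genes, Ctse, an intracellular protease of stomach, was higher without overlap at 14.8, 42.4 and 139 CPM in PPTR, against 0.395, 0.838 and 1.25 CPM in PNR (5.96 ± 0.48, edgeR adjusted p = 1.32e-08), and the mucin gene Muc13 was higher at 4.46 ± 1.05. The gut list gave 4 higher and 1 lower of 9 tested (44.4% and 11.1%, against 24.2% and 26.5% of all genes). Its median of 1.02 turned to -1.20 with block 044 alone.

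Among PPTR libraries, pairs had log2 ratios with a median SD of 0.863; among PNR libraries the 5 pairs within close sets had 0.244 and the 29 pairs of neither these sets nor PNR 1 with PNR 2 and 3 had 1.15. The median over genes of the SD of log2 CPM was 0.422 in PPTR and 0.436 in PNR. By the SD of log2 CPM, the 8 genes that varied most among PPTR libraries included Mup1 and other urinary proteins and H19. Among PNR libraries they included Upk3a, Slc1a2, Peg3 and Cyp1a2. Peg3, an imprinted zinc finger gene, had 0.281, 8.66 and 32.2 CPM in PPTR, against 0.0270, 1.22 and 1609 CPM in PNR (-5.06 ± 1.58, edgeR adjusted p = 0.0114), and its high PNR libraries were PNR 7 and 9, at 1609 and 1445 CPM, the same pair that was low in the Wnt genes. The sign of this difference turned in limma-voom (0.94) and in DESeq2 with replaced outliers (1.53), and no call was made with sex in the model. Between a PPTR and a PNR library the SD was 1.18 to 1.77, against 0.904 to 1.29 for those 29 PNR pairs.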

How the data were processed

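Total RNA in 11 PPTR and 9 PNR primary tumour libraries, with 6 normal liver libraries for orientation, was sequenced with a stranded protocol, per the labels. The authors deposited raw counts per gene symbol, 1 table per library with 34591 symbols, made with BWA, STAR and HTSeq on mm9, per the submitters' processing notes; the sources used here give neither versions nor settings. The 5 rows that name no gene were left out of library sizes and tests; reads in no feature were on average 18.9% of all reads in PPTR and 25.8% in PNR.

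Counts of the 20 tumour libraries were tested as deposited with the edgeR 4.0.16 quasi-likelihood test in R 4.3.3 (filterByExpr with a minimum count of 10, minimum total of 15, large group size of 10 and proportion of 0.7; TMM factors; Benjamini-Hochberg adjustment over all 15645 genes; threshold 0.05). The standard error of a log2 fold change is its size divided by the square root of the F statistic. CPM were computed with library totals times TMM factors. Alternatives used DESeq2 1.42.0, limma 3.58.1 (voom), other factors, no filter, covariates for sex and ribosomal repeat share, subsets of libraries and close PNR libraries summed. The procedure was tested on simulated data with known fold changes. It called 25 of 100 genes with a simulated log2 fold change of 1 and 99 of 99 with one of 2, with 5 false calls. In the simulation all genes had the same dispersion, few genes were changed and libraries were independent. In the data 50.7% of genes were called, the spread differed by gene and some PNR libraries were close. The simulated rates therefore do not carry over to this comparison. A gene that was not called may still differ.

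Genes were named by a rule: the 15 largest changes each way, up to 5 called members of each of 52 lists by CPM and up to 3 more, Trp53, Notch1, Prom1 and Ctnnb1, and the 8 most variable and 8 most abundant genes per model; part of them are given, and members beyond the first 5 of a list were chosen after their values were seen. The members and lists were chosen with earlier results of these data known. In the lists, 9 symbols were absent from the files. Reads of near-identical genes (Mup, Cyp2c, Cyp3a, Ugt1a, Serpina1, H2, ribosomal proteins) may be split between copies, so single members are uncertain. Some results are not reported here. Intervals and limits for counts of 0 cover counting error only.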

Additional observations from a re-analysis of the deposited data

Results flagged for a closer look

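In PNR, 1 library, PNR 8, lay far from the other 8 for 13 of the 159 genes described here that were examined for this (gap to the nearest library over the range of the group above Dixon's 95% critical value of 0.493 for 9 samples). Chance flags about 1 in 20 groups of independent libraries, so some of the 159 genes would be flagged by chance alone. PNR 2 and 3, PNR 4 to 6, and PNR 7 and 9 resembled each other closely and are not independent. A library with a close partner tends to have a small gap and can hardly be flagged. The rule therefore cannot show that PNR 8 is more unusual than those libraries. Among the flagged genes, PNR 8 was the lowest PNR library for these hepatocyte genes: Alb was 3499 CPM, Apoa4 7.17 CPM, Cps1 3.69 CPM, Tdo2 0.162 CPM, Ugt2b1 0.0539 CPM and Sult2a1 0.701 CPM. This did not hold for every hepatocyte gene, since PNR 8 was the highest PNR library for Gulo, at 2334 CPM. The transcription factor gene Cebpa was 64.0 CPM there, the cadherin gene Cdh2 131 CPM and the lipogenic Thrsp 1.70 CPM. It was the highest PNR library for Foxa1 at 14.2 CPM, Foxo3 at 215 CPM, Hhex at 106 CPM and Nr5a2 at 163 CPM. Leaving PNR 8 out ended none of these calls, and Cps1, not called with it, was called without it.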

How the results depend on the processing

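No paired analysis was possible because the labels give the libraries no replicate numbers. Main counts were 3793 genes higher and 4142 lower; leaving out 1 library gave 3564 to 3813 higher and 3902 to 4332 lower, and without PNR 4 to 6 (an alternative added after seeing the data) they were 3741 and 4092. Summing the close PNR libraries gave 2946 higher and 3695 lower. A fit without 1 PNR library of a close set keeps its partner in, so it is a weak check on that closeness. Counts moved by over 1.5 times with no filter on low counts (8408 lower), with the 3 PPTR libraries of identifier block 044 alone (1603 higher, 1559 lower) and with glmTreat against 2-fold (795 higher, 661 lower), which test more genes, fewer samples and a stricter null. Of 180 named genes called, 177 kept their call in every fit without 1 library; the exceptions were Afp, H19 and Notch3. Outside glmTreat, 119 kept it under every alternative. Library totals without factors gave 3240 higher and 4585 lower, and DESeq2 4240 and 4138.

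Log2 fold changes that turned sign, with causes that were not tested, were those of Afp in DESeq2 with replaced outliers (1.04), Peg3 in DESeq2 with replaced outliers (1.53) and limma-voom (0.94), and, with block 044 alone, Cd3g (-0.049), Cdkn1a (0.61), Nqo1 (-0.46), Otc (-0.63) and Srebf1 (-0.32). With block 016 alone they were Mki67 (0.016), Pecam1 (-0.32) and Vegfa (-0.49). Mki67 also turned in limma-voom (0.037), Nqo1 without the 3 PPTR libraries of high ribosomal repeat share (-0.084), and Srebf1 in limma-voom (-0.014), with library totals alone (-0.0017) and without PNR 4 to 6 (-0.049). Leaving out 1 library gave -0.27 to 0.64 for Pecam1, -0.011 to 0.59 for Vegfa, both lowest without PPTR 9, and -0.00084 to 0.20 for Srebf1, lowest without PPTR 1. Of these genes Afp, Peg3 and Cd3g were called in the main test.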

Other observations

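Gene families outside the lists were grouped by symbol after the values were seen, and are described without a test of the family. All family counts are to be read against the 24.2% of all genes called higher and the 26.5% called lower. UDP-glucuronosyltransferases, which attach glucuronic acid to drugs and bilirubin, were higher in PPTR in 15 of 19 tested and lower in 2 (median log2 fold change 1.62). Ugt2b1 had 21.0, 222 and 699 CPM in PPTR, against 0.0539, 9.77 and 23.5 CPM in PNR (log2 fold change 4.50 ± 0.69, edgeR adjusted p = 2.90e-05), and Ugt1a1, the bilirubin enzyme, was lower at -2.58 ± 0.33, though Ugt1a members share exons. Sulfotransferases, which also conjugate steroids and drugs, were 3 higher and 6 lower of 11 (median -2.44). Frizzled receptors, which bind Wnt ligands, were lower in 4 of 6 and higher in none.

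Proteasome subunits were higher in 25 of 39 and lower in 1 (median 0.54), and nuclear-encoded NADH dehydrogenase subunits were higher in 16 of 37 and lower in none (median 0.39), while the transcripts encoded by mitochondrial DNA were lower. Ribosomal protein genes were lower in 66 of 78 (median -0.76). They summed to 10837, 14109.9 and 20351 CPM in PPTR, against 16842, 24533 and 40957 CPM in PNR, and the 161 ribosomal protein pseudogenes to 1386, 1833 and 3159 CPM in PPTR, against 1707, 2300.0 and 4763 CPM in PNR, and reads may be split between genes and copies, as for Rpl34. Zinc finger genes with a Zfp symbol were lower in 146 of 334 and higher in 20 (median -0.41). For 36 of them every PPTR library lay below every PNR library (all genes, 4.82%). Integrins were 14 higher and 5 lower of 30 (all genes, 24.2% and 26.5%).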
